A study of Mus musculus with 2 samples.

Results

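The Fanconi anaemia and double-strand break repair genes were followed in haematopoietic stem cells (HSCs), the cells that maintain all blood lineages, as a set of 45 named genes. Of these, 42 had linked transcripts among the 28013 genes of the transcript table, and 43 had a value among the 37820 genes of the gene table. Fancf was in the gene table only. The symbols Fanca and H2afx-as were not matched and are not analysed here. The members comprised 13 Fanconi genes, 18 homologous recombination genes, 7 end joining genes and 7 checkpoint and damage signalling genes.

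The adult group is HSCs from the bone marrow (BM) of B6129SF1 mice aged 6 to 8 weeks, described by 2 samples. The fetal cells are HSCs of fetal liver (FL) at embryonic day 14.5, as the labels' protocol names them. The markers used to sort the cells, the number of animals pooled and the strain of the fetuses are not stated in the sources used here. Polyadenylated RNA was sequenced, and the deposited unit is FPKM (a fragment count scaled by feature length and by library size), given in single columns headed BM and FL, 1 pair for transcripts and 1 pair for genes. With 1 column per group there is no replicate spread, no error and no test: "higher" and "lower" below describe these columns. In bulk RNA, fewer cells of a type and less RNA per cell cannot be told apart. The sequencing depth is unknown.

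The Fanconi pathway repairs DNA interstrand crosslinks. A core complex, acting with the conjugating enzyme UBE2T, attaches ubiquitin to the FANCD2-FANCI clamp, which directs nucleases, and the break that results is mended by homologous recombination. Breaks can otherwise be rejoined directly by Ku, DNA-PK and ligase IV, while the ATM and ATR kinases signal damage to the cell cycle. Inherited loss of Fanconi genes leads to bone marrow failure, and HSCs of mice lacking pathway members are known to be depleted.

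The headers of the 2 tables could not be taken at face value. The BM column of the gene table lay within 1.5-fold of a constant ratio to the summed FL column of the transcript table for 90.6% of 11077 genes, against 60.3% for the BM columns of both tables and 50.4% for the FL columns of both. The fetal regulator gene Lin28b was at 0.304 FPKM in BM and 8.51 FPKM in FL among transcripts. In the gene table Lin28b was at 9.65 FPKM in BM and 8.33 FPKM in FL, both near the transcript FL value. The gene table's BM over FL ratio is not read here as adult over fetal. The adult and fetal columns compared here are therefore those of the transcript table, with the gene table's BM column as a check of the FL level. HSC markers were present in both transcript columns, with the stem cell factor receptor gene Kit at 181 FPKM in BM and 112 FPKM in FL, and the stem cell transcription factor gene Gata2 at 165 FPKM in BM and 68.3 FPKM in FL. The 12 genes listed did not all go the same way. By the ratio defined below, 9 of 12 were above 0 and 3 below. At least 2-fold higher in BM were 4 (33.3%, against 13.3% of all expressed genes). Only Cd48 was at least 2-fold lower, at 6.09 FPKM in BM and 25.1 FPKM in FL (8.33%, against 8.82%). Cd48 was on the list but is not a marker of HSCs themselves, so it is not an HSC marker going the other way.

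Break repair genes were expressed at similar levels in adult and fetal HSCs. A gene counts as expressed at 1 FPKM or more in either column, and 41 of the 42 members were; the exception was the ligase gene Lig4. The relative log2 ratio is log2((BM + 0.1) / (FL + 0.1)) less its median over genes that reached 1 FPKM in each column, a shift of 0.01. By this measure 38 of 41 members lay within 2-fold, 3 were at least 2-fold lower in BM and 0 were at least 2-fold higher. Among all 12221 expressed genes 8.82% were lower and 13.3% were higher, so the share of lower members, 7.32%, is near the background. The median ratio of the members was -0.17, against 0.02 over all expressed genes, and the members ranged between -1.67 and 0.84. The members past 2-fold were the crosslink clamp gene Fancd2, the strand exchange cofactor gene Rad51c and the resection nuclease gene Exo1.

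**Figure D1:**
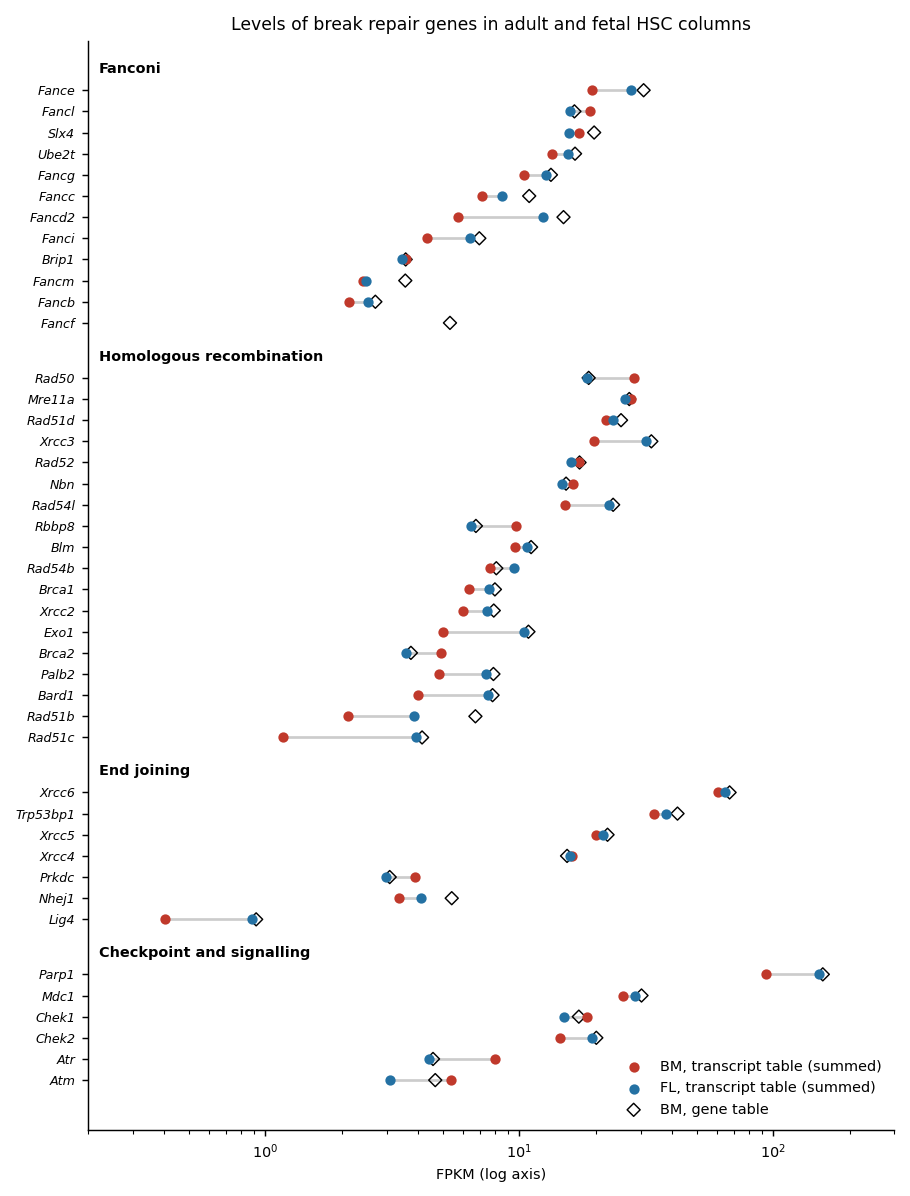
FPKM (log axis) of each member by role, in the BM and FL columns of the transcript table (filled circles, linked by a line) and in the column headed BM of the gene table (open diamonds); each point is 1 deposited value, without error. Parp1 is the most abundant member and Lig4 the least, and most pairs of circles lie close together.

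Among the Fanconi genes, 8 of 11 had ratios below 0 and 3 above, with a median of -0.24. Over all expressed genes the median was 0.02 and the quartiles were -0.44 and 0.54, so the Fanconi median lay between those quartiles. Past 2-fold was 1 Fanconi gene, lower in BM. That share, 9.09%, is near the 8.82% of all expressed genes. In the core complex the highest levels were those of Fance, whose protein links the complex to the clamp, at 19.4 FPKM in BM and 27.5 FPKM in FL. Fancl, which encodes the ubiquitin ligase subunit, was at 18.9 FPKM in BM and 15.9 FPKM in FL, and was the member of this group with the highest ratio, 0.24. The adaptor subunit gene Fancg was at 10.4 FPKM in BM and 12.7 FPKM in FL. These subunits thus differed by less than 1.5-fold between the columns.

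Other core subunits were scarcer. Fancc was at 7.15 FPKM in BM and 8.55 FPKM in FL. The X-linked gene Fancb was at 2.14 FPKM in BM and 2.54 FPKM in FL. Fancm, whose protein is the translocase that anchors the complex on DNA, was at 2.42 FPKM in BM and 2.48 FPKM in FL. The 6 core complex members in this table summed to 60.4 FPKM in BM and 69.7 FPKM in FL. That sum leaves out Fanca, Fancf and the core partner genes Faap20 and Faap100, so it is not one of the whole complex. Fancf, measured only in the gene table, was at 5.33 FPKM in BM and 2.82 FPKM in FL of that table.

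The clamp itself showed the larger difference. Fancd2 was at 5.71 FPKM in BM and 12.4 FPKM in FL, a ratio of -1.11. Its partner Fanci was at 4.34 FPKM in BM and 6.39 FPKM in FL, a ratio of -0.55. The gene table lay within 1.5-fold of the FL values, at 14.9 FPKM for Fancd2 and 6.95 FPKM for Fanci in its BM column. Ube2t, whose product charges the ligase with ubiquitin, was at 13.4 FPKM in BM and 15.6 FPKM in FL. Downstream, the helicase gene Brip1 was at 3.57 FPKM in BM and 3.44 FPKM in FL, and the nuclease scaffold gene Slx4 was at 17.1 FPKM in BM and 15.7 FPKM in FL. The last 3 genes differed by less than 1.2-fold.

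The homologous recombination genes spanned the widest range of the 4 roles, between -1.67 and 0.60. Of these 18 genes, 12 had ratios below 0 and 6 above. Their median was -0.29, against 0.02 over all expressed genes, whose quartiles were -0.44 and 0.54. The 2 genes past 2-fold were lower in BM, a share of 11.1% beside 8.82% of all expressed genes. With protein-coding transcripts only, 1 of 17 was lower (5.88%, against 8.53% of all expressed genes). The 5 genes Rad51b, Rad51c, Rad51d, Xrcc2 and Xrcc3, which encode related strand exchange cofactors, had ratios below 0 under every scaling tried when all linked transcripts were summed. Rad51c was at 1.17 FPKM in BM and 3.93 FPKM in FL, a ratio of -1.67. Rad51b was at 2.12 FPKM in BM and 3.85 FPKM in FL, and Xrcc3, which pairs with RAD51C, was at 19.7 FPKM in BM and 31.5 FPKM in FL. Rad51b was the 1 member of 42 whose FL value did not match the gene table, where it stood at 6.71 FPKM in the BM column; with that value in place of FL its ratio of -0.84 became -1.50, past 2-fold. Xrcc2 was at 5.99 FPKM in BM and 7.49 FPKM in FL. The last of these genes, Rad51d, was nearly equal, at 21.97 FPKM in BM and 23.3 FPKM in FL.

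Of the genes that load the recombinase onto resected DNA, Bard1 differed most. Bard1, the obligate partner of BRCA1, was at 3.99 FPKM in BM and 7.51 FPKM in FL, a ratio of -0.90. Brca1 was at 6.34 FPKM in BM and 7.60 FPKM in FL, and Palb2, which bridges BRCA1 and BRCA2, was at 4.82 FPKM in BM and 7.42 FPKM in FL. Brca2, the recombinase loader gene, went the other way, at 4.90 FPKM in BM and 3.57 FPKM in FL, a ratio of 0.44. Bard1 and Brca2 each had 1 linked transcript, and their FL values had a ratio to the gene table within 0.01 of the median of 1.05 over all genes.

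End resection, which prepares a break for recombination, was also split. The subunits of the MRE11-RAD50-NBS1 sensor were level or higher in BM. Rad50 was at 28.3 FPKM in BM and 18.5 FPKM in FL, a ratio of 0.60, Mre11a was at 27.5 FPKM in BM and 26.1 FPKM in FL, and Nbn was at 16.2 FPKM in BM and 14.7 FPKM in FL. Rbbp8, which encodes the sensor's cofactor CtIP, was at 9.74 FPKM in BM and 6.47 FPKM in FL. Exo1, the nuclease of long-range resection, was in contrast at 4.998 FPKM in BM and 10.4 FPKM in FL, a ratio of -1.06. Exo1 had a single linked transcript, which is protein coding.

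The late-acting recombination genes were lower or level in BM. The translocase gene Rad54l was at 15.1 FPKM in BM and 22.5 FPKM in FL, and its relative Rad54b was at 7.64 FPKM in BM and 9.57 FPKM in FL. The helicase gene Blm, whose product helps dissolve recombination junctions between DNA molecules, was at 9.61 FPKM in BM and 10.7 FPKM in FL. The annealing factor gene Rad52 was at 17.1 FPKM in BM and 16.0 FPKM in FL. None of these 4 sums reached a 1.5-fold difference.

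**Figure D2:**
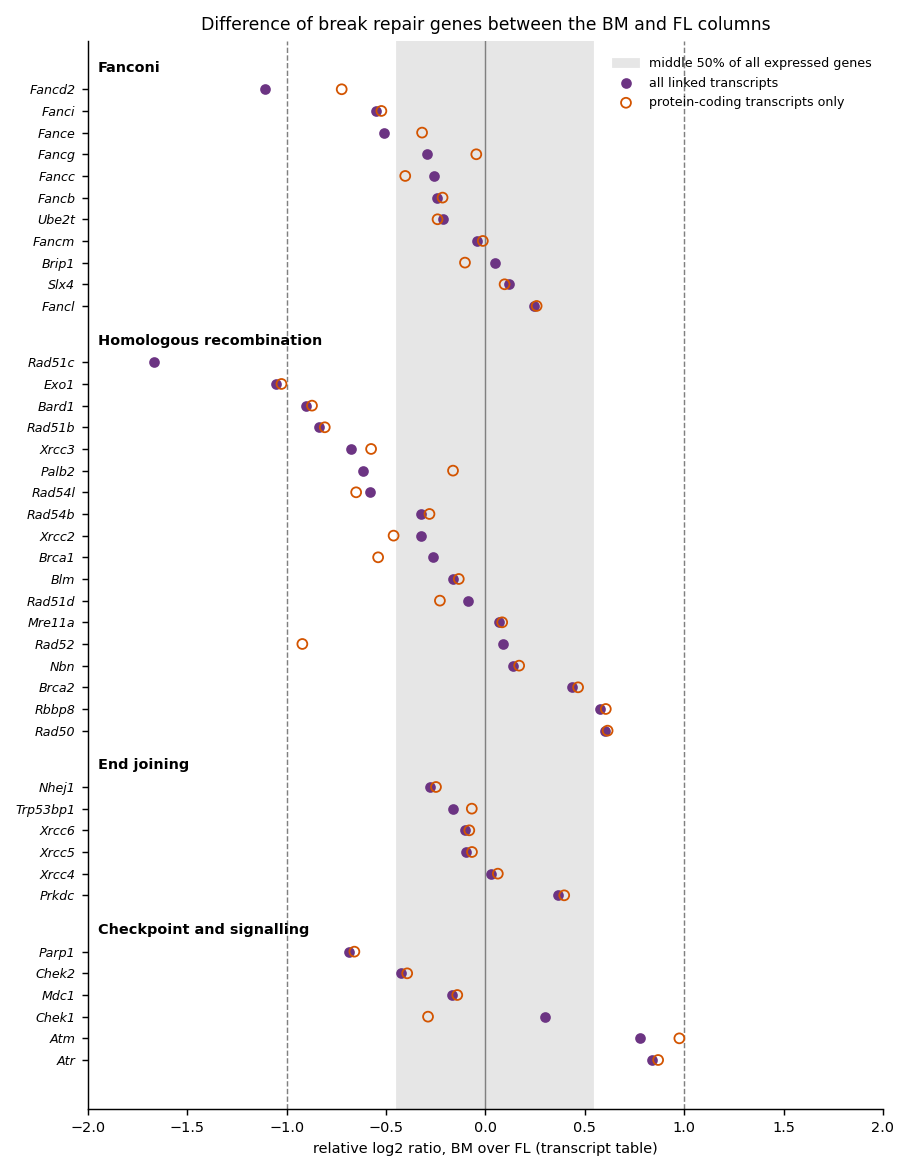
Relative log2 ratio of BM over FL in the transcript table for the 41 expressed members, by role, from all linked transcripts (filled) and from protein-coding transcripts only (open, shown where that sum reached 1 FPKM in either column). Grey covers the middle 50% of all expressed genes (-0.44 to 0.54) and dashed lines mark 2-fold; Fancd2, Rad51c and Exo1 lie left of the lower line and no member lies right of the upper one.

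The 6 expressed end joining genes spanned the narrowest range of the 4 roles, between -0.28 and 0.37, with a median of -0.10 and none past 2-fold. The Ku subunit genes Xrcc6 and Xrcc5 were the most similar pair. Xrcc6 (Ku70) was at 60.4 FPKM in BM and 64.5 FPKM in FL, and Xrcc5 (Ku80) was at 20.1 FPKM in BM and 21.4 FPKM in FL. Prkdc, the DNA-PK catalytic subunit gene, was at 3.88 FPKM in BM and 2.97 FPKM in FL. The ligation factor gene Xrcc4 was at 16.2 FPKM in BM and 15.8 FPKM in FL, and Nhej1, which encodes the XLF factor, was at 3.37 FPKM in BM and 4.09 FPKM in FL. The ligase gene Lig4 was at 0.401 FPKM in BM and 0.885 FPKM in FL, under the level called expressed in both, with a ratio of -0.98. Trp53bp1, whose protein protects ends from resection, was at 34.0 FPKM in BM and 37.9 FPKM in FL.

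In damage signalling the apical kinases and the break sensor PARP1 stood at opposite ends. Atr was at 8.00 FPKM in BM and 4.40 FPKM in FL, a ratio of 0.84 that was the highest of the members when all linked transcripts were summed. Atm was at 5.396 FPKM in BM and 3.09 FPKM in FL, a ratio of 0.78; from coding transcripts the ratio of Atm, 0.98, was above that of Atr, 0.87. Parp1, the most abundant member in both columns, was at 93.9 FPKM in BM and 151 FPKM in FL, a ratio of -0.69. The FL value of Atm stood below the gene table, which had 4.66 FPKM in its BM column, a table ratio of 1.51 that lies near the edge of a match. With that gene table column used in place of FL, the ratio of Atm was 0.33 and that of Atr 0.91.

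The effector kinases and the mediator differed little. Chek1, which encodes the kinase under ATR, was at 18.5 FPKM in BM and 15.0 FPKM in FL. Chek2, which encodes the kinase under ATM, was at 14.4 FPKM in BM and 19.3 FPKM in FL. The chromatin mediator gene Mdc1 was at 25.5 FPKM in BM and 28.6 FPKM in FL. The median of the 6 signalling genes was 0.06, with 3 above 0 and 3 below. From protein-coding transcripts only, their median was -0.22. The same measure was -0.22 for Fanconi, -0.28 for homologous recombination and -0.07 for end joining genes.

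Which transcripts carried these sums changed the call for 2 members, Fancd2 and Rad51c. Transcript types below are those of the GENCODE annotation. The 42 members had 210 linked transcripts, of which 102 are protein coding, and the coding ones held 79.3% of the members' FPKM in BM and 80.1% in FL, against 87.0% and 87.7% over all linked transcripts. With protein-coding transcripts alone, 1 of 40 expressed members (2.50%) was at least 2-fold lower and 0 were higher, where all genes gave 8.53% lower and 12.4% higher. Exo1 stayed past 2-fold at -1.03. Fancd2 was then within 2-fold, and Rad51c was under the level called expressed.

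For Fancd2, the retained-intron model Fancd2-207 was the leading transcript, at 2.51 FPKM in BM and 7.58 FPKM in FL. The coding transcript Fancd2-201 was at 2.50 FPKM in BM and 4.27 FPKM in FL, a ratio of -0.72. For Rad51c, the transcripts annotated for nonsense-mediated decay summed to 0.884 FPKM in BM and 3.81 FPKM in FL, and Rad51c-203 alone was at 0.127 FPKM in BM and 2.16 FPKM in FL. The coding transcripts of Rad51c summed to 0.291 FPKM in BM and 0.118 FPKM in FL, below the level called expressed. The lower Rad51c sum in BM thus lay in the decay class, and the coding class differed in the opposite direction.

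In Rad52, equal sums covered unlike transcripts. Its coding transcripts summed to 2.48 FPKM in BM and 4.87 FPKM in FL, a ratio of -0.92, while its decay transcripts were at 3.28 FPKM in BM and 0.658 FPKM in FL. Chek1 was similar, with coding transcripts at 9.66 FPKM in BM and 12.01 FPKM in FL and the non-coding Chek1-207 at 5.38 FPKM in BM and 0.918 FPKM in FL. The Chek1 ratio was 0.30 from all transcripts and -0.29 from coding ones. In Brca1 the coding sum was 4.91 FPKM in BM and 7.30 FPKM in FL, and retained-intron models held 1.44 FPKM in BM and 0.307 FPKM in FL. Sums of Trp53bp1 rested mostly on non-coding models in both columns, with a coding sum of 5.29 FPKM in BM and 5.65 FPKM in FL. The leading transcript was the same in both columns for 28 of the 32 members with more than 1 linked transcript; Fanci was an exception, led by Fanci-202 in BM (2.40 FPKM, against 1.67 FPKM in FL) and by Fanci-201 in FL (1.94 FPKM in BM and 4.72 FPKM in FL).

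**Figure D3:**
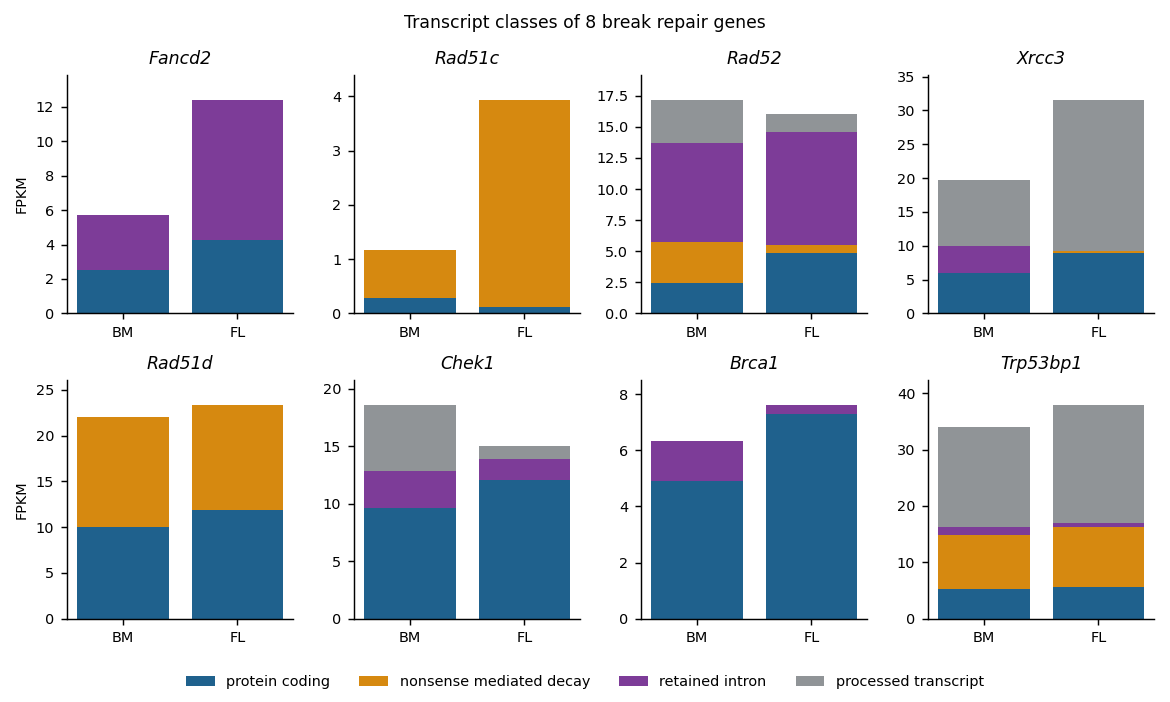
FPKM of 8 members in the BM (left bar) and FL (right bar) columns of the transcript table, stacked by annotated transcript class; each panel has its own axis starting at 0. The coding part of Rad52 is smaller in BM although the bars are nearly equal in height, and for Rad51c the decay class is lower in BM while the small coding class is not.

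Promoter windows from RefSeq (GRCm38.p6, 250 bases before to 50 after the annotated start) were matched for 34 of the 43 members measured. They were searched on both strands for the E2F motifs TTTCCCGC and TTTGGCGC, the cell cycle homology region TTTGAA and the CCAAT box; no motif contains another. TTTCCCGC was in 6 of 34 member windows (17.6%), against 1.11% of 27025 windows of all genes, and TTTGGCGC was in 0 of 34 against 0.537%. CCAAT was in 58.8% of member windows and 37.9% of all, and TTTGAA in 2.94% and 18.1%. The windows with TTTCCCGC were those of Bard1, Brca2, Chek2, Fancg, Mdc1 and Xrcc6. Their ratios ran from -0.90 for Bard1 to 0.44 for Brca2. A match describes these letters and does not show a bound site.

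The windows below belong to the expressed members with the lowest (Rad51c, Bard1) and highest (Atr, Atm) ratios that had a window, and to Brca2, which shares a motif with Bard1 and lay on the other side of 0. Capitals mark matches to any of the 4 motifs on either strand. They are at chr11:87404457-87404756 (minus strand, the first of 2 windows listed for Rad51c), chr1:71102923-71103222 (minus, Bard1), chr9:95857347-95857646 (plus, Atr), chr9:53536622-53536921 (minus, Atm) and chr5:150522371-150522670 (plus, Brca2), all in GRCm38.p6 and 5′ to 3′.
Rad51c: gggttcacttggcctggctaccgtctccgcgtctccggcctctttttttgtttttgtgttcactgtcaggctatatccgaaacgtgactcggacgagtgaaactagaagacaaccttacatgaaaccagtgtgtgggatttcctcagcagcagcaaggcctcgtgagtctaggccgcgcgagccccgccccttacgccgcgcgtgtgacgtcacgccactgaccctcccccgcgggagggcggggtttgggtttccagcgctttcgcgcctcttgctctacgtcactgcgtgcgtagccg
Bard1: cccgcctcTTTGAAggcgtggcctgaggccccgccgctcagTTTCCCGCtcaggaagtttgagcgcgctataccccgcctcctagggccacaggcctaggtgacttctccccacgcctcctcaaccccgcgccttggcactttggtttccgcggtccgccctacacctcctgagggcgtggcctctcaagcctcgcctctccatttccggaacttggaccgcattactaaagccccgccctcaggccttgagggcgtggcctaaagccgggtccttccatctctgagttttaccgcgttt
Atr: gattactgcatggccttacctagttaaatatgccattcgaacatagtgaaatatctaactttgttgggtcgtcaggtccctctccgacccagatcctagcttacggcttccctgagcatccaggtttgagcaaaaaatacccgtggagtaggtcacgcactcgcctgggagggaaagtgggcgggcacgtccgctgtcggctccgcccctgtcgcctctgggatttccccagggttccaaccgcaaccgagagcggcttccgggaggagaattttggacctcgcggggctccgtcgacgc
Atm: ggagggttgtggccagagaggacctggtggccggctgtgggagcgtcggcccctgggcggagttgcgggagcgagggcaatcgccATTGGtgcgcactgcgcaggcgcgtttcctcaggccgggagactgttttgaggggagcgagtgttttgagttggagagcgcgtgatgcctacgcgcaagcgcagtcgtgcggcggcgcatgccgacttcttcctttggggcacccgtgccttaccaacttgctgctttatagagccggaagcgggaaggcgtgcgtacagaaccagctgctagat
Brca2: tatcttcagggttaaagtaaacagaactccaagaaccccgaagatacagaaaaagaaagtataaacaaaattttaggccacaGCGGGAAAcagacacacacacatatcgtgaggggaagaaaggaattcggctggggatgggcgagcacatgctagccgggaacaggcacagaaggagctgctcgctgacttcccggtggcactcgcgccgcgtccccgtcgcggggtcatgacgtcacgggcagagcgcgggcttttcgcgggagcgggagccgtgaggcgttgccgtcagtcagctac
The Bard1 window held TTTGAA and TTTCCCGC, that of Brca2 held TTTCCCGC as its reverse complement, that of Atm held CCAAT on the minus strand, and those of Rad51c and Atr held none of the 4.

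Other genes of the same pathways differed over a like range. Of 62 expressed partner genes, 6 were at least 2-fold lower in BM and 0 were higher, a share of 9.68% lower beside the background of 8.82%, with a median ratio of -0.28. Among 14 Fanconi partners the lower ones were Eme1, a subunit gene of the MUS81 nuclease, at 4.65 FPKM in BM and 15.5 FPKM in FL, Faap24, a FANCM partner gene, at 8.77 FPKM in BM and 20.8 FPKM in FL, and the chromatin factor gene Uhrf1, at 74.4 FPKM in BM and 150 FPKM in FL. Usp1, which encodes the protease that removes ubiquitin from the clamp, was the most abundant of them in BM, at 78.2 FPKM in BM and 79.2 FPKM in FL. Faap20, a core complex partner gene, was at 44.1 FPKM in BM and 33.8 FPKM in FL. The median of this list was 0.09.

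Recombination partners leaned to lower values in BM, with 18 of 22 ratios below 0 and a median of -0.51, but 1 gene past 2-fold. That gene was Gen1, a resolvase gene, at 0.599 FPKM in BM and 2.002 FPKM in FL; its FL value did not match the 4.39 FPKM in BM of the gene table. Sem1, a BRCA2-binding factor gene, was at 268 FPKM in BM and 381 FPKM in FL. Swi5 was at 209 FPKM in BM and 284 FPKM in FL. The single-strand binding subunit gene Rpa1 was at 103 FPKM in BM and 157 FPKM in FL.

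End joining partners had 1 lower gene of 10 (median -0.41), the polymerase gene Polm at 1.91 FPKM in BM and 4.10 FPKM in FL. The most abundant were Paxx, a Ku-binding factor gene, at 32.5 FPKM in BM and 16.8 FPKM in FL, the scaffold gene Xrcc1 at 27.0 FPKM in BM and 46.0 FPKM in FL, and the ligase gene Lig3 at 23.5 FPKM in BM and 27.8 FPKM in FL. Paxx had a ratio of 0.94 from all transcripts and of 0.16 from protein-coding ones, which were at 7.73 FPKM in BM and 7.02 FPKM in FL. Checkpoint partners had 1 lower gene of 16 (median -0.20), the phosphatase gene Cdc25a at 18.04 FPKM in BM and 39.1 FPKM in FL. The most abundant in BM were the fork protection gene Tipin, at 67.2 FPKM in BM and 83.4 FPKM in FL, the ATR activator gene Topbp1, at 37.7 FPKM in BM and 39.9 FPKM in FL, and Parp2, at 28.1 FPKM in BM and 29.5 FPKM in FL. The histone variant gene H2afx was in the gene table only, at 172 FPKM in BM and 153 FPKM in FL of that table.

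Markers of cycling cells and of other blood cells differed between the same columns. Of 15 cycling cell genes 9 (60%) were at least 2-fold lower in BM and 0 were higher (median -1.09). Over all expressed genes 8.82% were lower and 13.3% were higher. The cycling cell genes summed to 608 FPKM in BM and 1176 FPKM in FL. The most abundant of them were the replicative helicase genes Mcm6, at 149 FPKM in BM and 188 FPKM in FL, and Mcm2, at 95.0 FPKM in BM and 170 FPKM in FL, and the mitotic kinase gene Cdk1, at 75.6 FPKM in BM and 156 FPKM in FL. All 10 erythroid and all 8 macrophage markers were at least 2-fold lower in BM. Their sums were 71.2 and 6.42 FPKM in BM against 526 and 193 FPKM in FL. Of 10 myeloid markers 8 (80%) were at least 2-fold lower, with a sum of 208 FPKM in BM and 617 FPKM in FL. The macrophage receptor gene Timd4 and the hepatocyte gene Serpina1a were listed at 0 in BM. The part of cycling and of these other cells in the repair gene values was not tested.

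**Figure D4:**
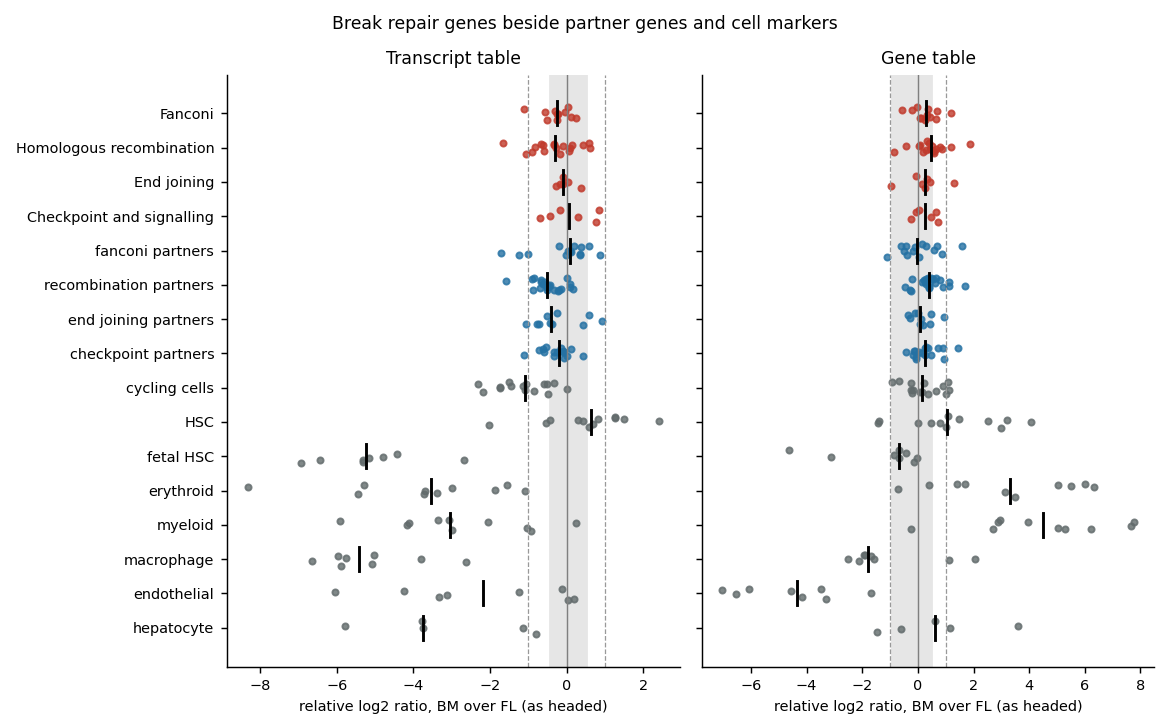
Relative log2 ratio of BM over FL, as headed, for each expressed gene (points) of the 4 roles (red), their partner lists (blue) and marker lists (grey), in the transcript table (left) and gene table (right); black bars are list medians, grey bands the middle 50% of all expressed genes and dashed lines 2-fold. Repair genes lie between -2 and 2 in both tables, while cell markers spread to beyond 4 on this scale.

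The gene table gave a separate comparison, in which the BM column carries the values that match FL of the transcript table. The 2 comparisons therefore share values, on opposite sides of the ratio. Of 43 members 4 were at least 2-fold higher in BM of the gene table and 0 were lower, against 12.3% of all 13834 expressed genes higher and 23.6% lower. The median was 0.33, against -0.07 over all genes, relative to a median gene shifted by 0.24; 34 members had ratios above 0 and 9 below, and without that centring Fancg, Fancm, Xrcc4 and Atr were above 0 as well. The higher members were Xrcc3, at 33.1 FPKM in BM and 7.54 FPKM in FL, Xrcc6, at 67.3 FPKM in BM and 23.2 FPKM in FL, Fancd2, at 14.9 FPKM in BM and 5.43 FPKM in FL, and Rad51d, at 25.1 FPKM in BM and 9.36 FPKM in FL. Lig4 and Rbbp8 had the lowest ratios, -0.97 and -0.86, with Rbbp8 at 6.74 FPKM in BM and 10.4 FPKM in FL.

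The FL column of the gene table held endothelial transcripts at high levels. All 8 endothelial markers were lower in BM of that table, with a sum of 289 FPKM in BM and 2375 FPKM in FL; the vascular genes Egfl7 (236 FPKM in BM and 649 FPKM in FL), Plvap (7.54 FPKM in BM and 599 FPKM in FL) and Cdh5 (7.97 FPKM in BM and 457 FPKM in FL) led the list. Of 10 erythroid markers 8 and of 10 myeloid markers 9 were at least 2-fold higher in BM. The part of these other cell types in the gene table's repair gene values was not tested.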

How the data were processed

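The authors deposited FPKM values per gene and per transcript, 1 value per group (columns BM and FL), with no replicate columns. Per the submitters' processing notes, the tools were TopHat, Cufflinks, featureCounts (Subread) and edgeR, with no role or version, and the build was mm9. FPKM divides by feature length and library total, and reads of overlapping transcripts are shared by a model, so short isoforms and sums over them are estimates. The FL column was read as fetal liver from the labels' protocol.

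Transcripts were linked to genes by identifier through GENCODE M21, a later build, which placed 76512 of 87641 transcripts; the others held 10.9% of the FPKM in BM and 10.4% in FL, so a sum can be too low. Gene sums, relative ratios (pseudocount 0.1), a minimum of 1 FPKM and a 2-fold call were computed with pandas 2.3.3 and numpy 2.4.6 under Python 3.11.15; figures used matplotlib 3.10.9. The call rule was tested on simulated data, with planted changes larger than 2-fold in genes at 5 FPKM or more. That test does not cover calls near 2-fold or near 1 FPKM. A check value matched where its ratio lay within 1.5-fold of the median of all genes. All members could be named, as could partner genes past 2-fold or among the 3 highest in BM, the 3 highest markers of a list and those at 0; a few further markers were named as checks. The members, lists and rules were chosen with earlier results of these data known.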

Additional observations from a re-analysis of the deposited data

How the results depend on the processing

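In the transcript table, the count of lower members was 3 and moved to 8 with a 1.5-fold call and to 1 with protein-coding transcripts only; the cause of the first is the looser call. The count of higher members was 0 and moved to 3 with a 1.5-fold call. The median ratio of -0.17 was -0.16 with a pseudocount of 1 or without centring, -0.086 with upper-quartile scaling, -0.19 without a minimum or with coding transcripts only, and -0.18 with the gene table's BM column in place of FL. Exo1 was not past 2-fold with a pseudocount of 1, upper-quartile scaling or the gene table's column, Rad51b was past 2-fold (-1.50) with that column, Fancd2 was not with coding transcripts only, and Rad51c fell under the minimum with coding transcripts only or with a minimum of 5 FPKM. In the gene table, the median of 0.33 was 0.35 and 0.27 with pseudocounts of 0.01 and 1, 0.57 without centring and 0.43 with a minimum of 5 FPKM. Its 4 higher members became 12 with a 1.5-fold call, and its 0 lower members became 1 with a pseudocount of 0.01 and 2 with a 1.5-fold call. Chek1, Brip1 and Rad52 went below 0 with coding transcripts only, Slx4 (-0.08) went below and Rad54b (0.03) above 0 with the gene table's column, and Fancm (0.04) went above 0 with upper-quartile scaling. Of the members past 2-fold, Rad51c had a coding-only ratio of 0.86, at levels under 1 FPKM in both columns; no other changed sign where it could be computed. No paired analysis was possible because the columns carry no replicate, and no replicate could be left out. Depth is unknown, so values near 1 FPKM, such as those of Rad51c and Lig4, carry an unknown counting error.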
